A study of Mus musculus with 20 samples.

Results

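Late neutrophil granule and maturation genes were followed in bulk bone marrow RNA of 20 mice. The 10 genes, of 37620 in the table of gene counts, were *Ltf*, *Camp*, *Ngp*, *Lcn2*, *Chi3l3*, *Cd177*, *Mmp8*, *Mmp9*, *S100a8* and *Cxcr2*. They were taken by name. *Chi3l3* and *Cd177* were also chosen by measured values of these mice, the difference between the genotypes in how the drug changed the inclusion of their exons. That comparison is therefore given for both genes as a description only.

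Neutrophils make their granule proteins in steps as they mature in the marrow. Primary granule enzymes are made by promyelocytes, the proteins of the secondary granules (*Ltf*, *Camp*, *Ngp*, *Lcn2*) by myelocytes and metamyelocytes, and gelatinase granule proteins such as *Mmp9* later still, while the chemokine receptor *Cxcr2* appears on cells that are ready to leave for the blood. Transcription factors of the C/EBP family, *Cebpe* above all, drive the secondary granule genes.

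Recipients carried marrow from donors with a doxycycline-inducible U2AF1(WT) or U2AF1(S34F) transgene together with rtTA, the doxycycline-dependent activator, and each genotype received vehicle or sudemycin D6 (5 mice for each combination). U2AF1 recognises the end of introns, S34F is a change found in myelodysplastic syndromes, and sudemycin D6 is a splicing modulator that binds SF3B1. All 4 groups, called here WT and S34F mice given vehicle or drug, ate doxycycline chow at 625 ppm for 7 days, and drug (50 mg per kg per day, 4 h infusions) or vehicle was infused on the last 5 of those days. Donors were 8 to 12 weeks old, recipients were irradiated congenic mice of 6 to 12 weeks, and cells of 2 to 3 donors were pooled for transplantation, so mice of a genotype can share donors. The endogenous *U2af1* gene was kept, and cells outside the blood lineages were the recipient's own.

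Gene counts summed to between 41145892 and 62138138 per mouse (median 51836276). The marrow carried the markers of neutrophils at high levels, with the defining list of 8 genes all detected in every group. This list overlaps the 10 genes and is not separate from them. *U2af1*, in counts that do not separate the transgene from the endogenous gene, was at 34.8 to 48.3 CPM (gene counts scaled to a common library size) in WT mice and 46.4 to 58.0 in S34F mice. *Xist* had 39145 to 78640 counts in WT mice and 1 to 8 in S34F mice, so genotype and sex cannot be told apart in any comparison of the genotypes. Mice 8 and 9 of the drug-treated WT group stood apart from the other 3 of that group in most of the 10 genes, and values without these 2 mice, a choice made after seeing the data, are given beside the results that use this group. Their values were mostly the higher ones. Leaving them out therefore lowers the drug changes in WT mice and raises the genotype differences under drug by the choice itself. The same holds for genes of other lists in which these 2 mice were high. Such values and calls show how much rests on these mice and are not separate results.

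The 10 genes were among the most abundant of the marrow. Together they took 5.08% to 8.87% of all gene counts of a mouse. Per length (RPKM, CPM per kilobase of exon, mean ± SD over 20 mice), *S100a8*, which codes for a subunit of the calcium- and zinc-binding protein calprotectin, stood first at 47728 ± 21357 and was the gene of rank 2 in the whole table. *Ngp* (9817 ± 1796) and *Camp* (9372 ± 1618), which code for the cathelicidin-related neutrophilic granule protein and for cathelicidin, followed. Their order was not fixed, since *Ngp* was the higher in 12 of 20 mice.

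*Ltf*, the iron-binding lactoferrin, had 4863 ± 965 RPKM. *Chi3l3*, which codes for the chitinase-like lectin Ym1, had 2784 ± 632, and *Lcn2*, whose product lipocalin withholds bacterial siderophores, had 1690 ± 361. *Chi3l3* exceeded *Lcn2* in 19 of 20 mice. The collagenase *Mmp8* (810 ± 187), the surface glycoprotein *Cd177* (731 ± 166) and the gelatinase *Mmp9* (632 ± 135) lay close together, each above the next in 17 of 20 mice. *Cxcr2*, the receptor for CXC chemokines, was lowest at 194 ± 24.3 RPKM and had a rank of 240 among all genes.

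In CPM (scaled by edgeR's TMM factors), *S100a8* had 10293, 11880, 11668, 6342 and 14256 in the vehicle-treated WT mice. In vehicle-treated S34F mice it had 24167, 21451, 23768, 35263 and 26166. All 5 S34F mice lay above all 5 WT mice. The log2 fold change was 1.26 ± 0.20 (± SE), 2.39-fold (FDR = 0.000735 over all genes, edgeR). At FDR under 10%, 4 of the 10 genes were called, all higher in S34F mice, where 39.5% of the 14817 genes tested were called and 19.7% were called higher. With a minimum log2 change of 0.58 as well, 1 (*S100a8*) was called, beside 14.1% of genes. The median of the 10 log2 fold changes was 0.14, against 0.0021 over all genes tested.

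*Camp* had 4723, 3323, 5062, 5486 and 4716 CPM in vehicle-treated WT mice and 5685, 5978, 5573, 7828 and 6146 in vehicle-treated S34F mice. The groups did not overlap, although the highest WT mouse was close to the lowest S34F mouse. The difference was 0.41 ± 0.14 on the log2 scale (1.33-fold, FDR = 0.0424).

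*Mmp8*, the collagenase, had 1630, 1496, 1756, 1614 and 1805 CPM in vehicle-treated WT mice. It had 1879, 1822, 2165, 2808 and 2112 in vehicle-treated S34F mice, again without overlap and with mouse 7 the highest. The log2 fold change was 0.37 ± 0.12 (FDR = 0.0360), and in one model of all mice it no longer passed (FDR = 0.116). In this comparison 3 of the 10 genes (*S100a8*, *Camp* and *Mmp8*) had groups that did not overlap, beside 20.2% of all genes tested.

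*Chi3l3* had 3595, 3276, 4128, 3760 and 4322 CPM in vehicle-treated WT mice and 4597, 4346, 4124, 6385 and 4889 in vehicle-treated S34F mice. These groups overlapped. The difference of 0.34 ± 0.13 passed the threshold (FDR = 0.0638) but did not pass without S34F mouse 7 (0.22, FDR = 0.133), S34F mouse 11 (0.34, FDR = 0.112) or WT mouse 1 (0.32, FDR = 0.132).

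The other 6 genes did not pass the test between the genotypes under vehicle. *Ltf* had 12606 ± 1332 CPM in WT and 14767 ± 3008 in S34F mice (mean ± SD, n = 5; log2 0.22, 95% interval −0.07 to 0.50). The intervals of *Ngp* (−0.23 to 0.35), *Lcn2* (−0.25 to 0.22), *Cd177* (−0.26 to 0.22) and *Cxcr2* (−0.19 to 0.20) lay around 0. *Mmp9* was at 2348 ± 302 CPM in WT and 2104 ± 336 in S34F mice (−0.17, interval −0.43 to 0.09). Of the secondary granule genes *Camp* passed the threshold here, and *Ltf*, *Ngp* and *Lcn2* did not. Whether these genes differ from each other was not tested. In bulk marrow, fewer cells of a type and less RNA per cell cannot be told apart.

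**Figure D1:**
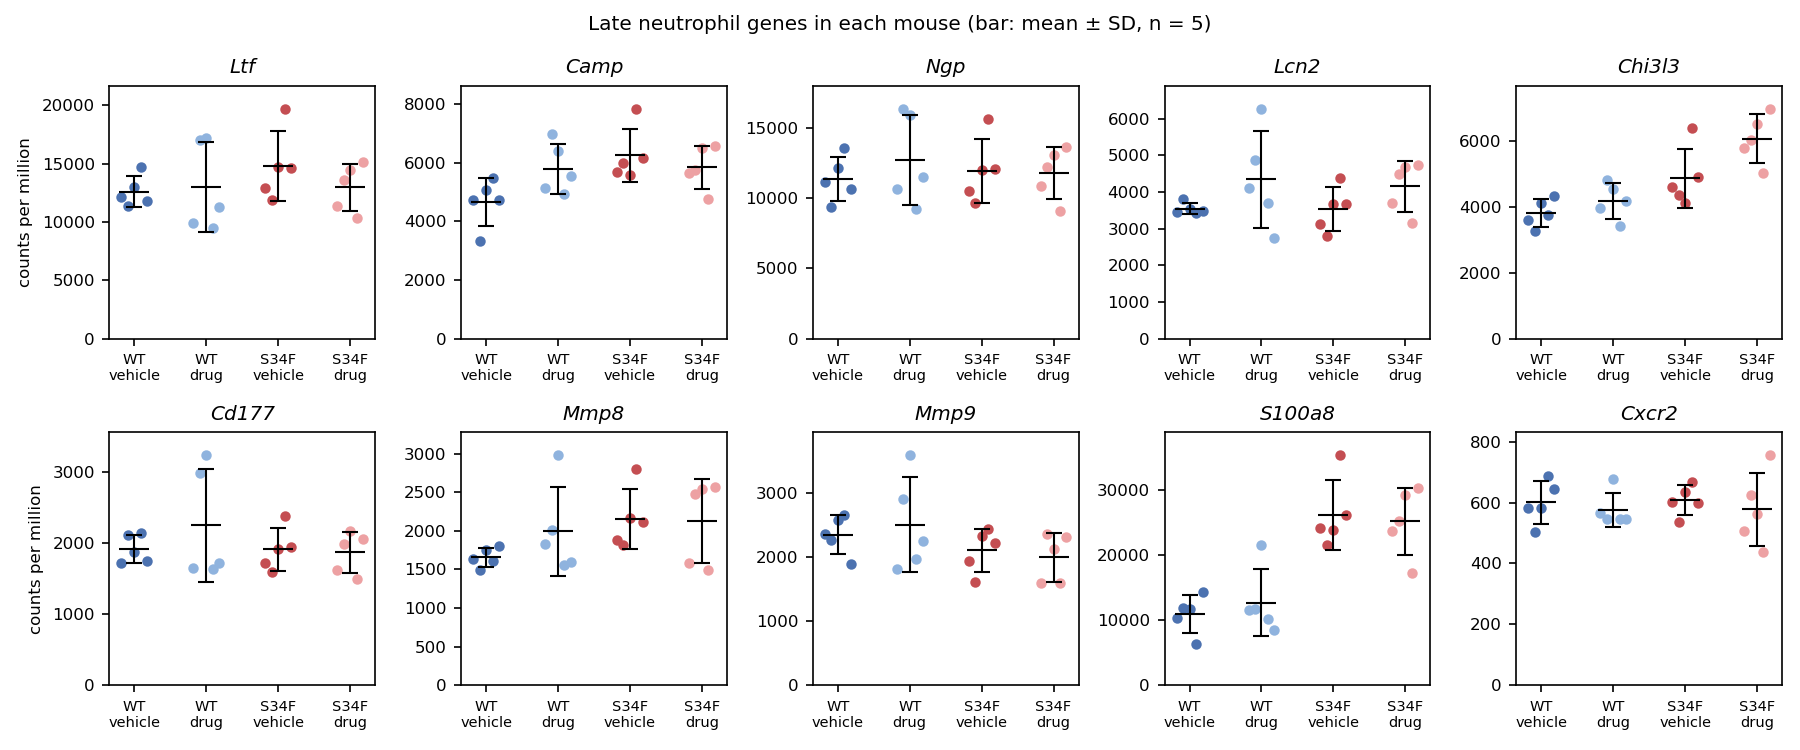
CPM (y axis, from 0) of each of the 10 genes in each mouse, by group on the x axis. Points are mice and bars are mean ± SD of 5 mice. *S100a8* in S34F mice under vehicle (21451 to 35263) lies above all vehicle-treated WT mice (6342 to 14256), while *Cxcr2* lies within 438 to 755 in all groups.

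Sudemycin D6 moved none of the 10 genes past the threshold in WT mice, where 3.07% of 14763 genes were called. With edgeR none had an unadjusted p under 0.05 (smallest FDR 0.442), and DESeq2 called 0 with 1 unadjusted p under 0.05. No gene had groups without overlap, beside 4.15% of all genes tested. The median of the 10 differences was 0.17, and −0.12 without mice 8 and 9, where again none was called (3.38% of genes were).

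The drug-treated WT mice were spread widely. For *Ltf* the values were 9909, 17059, 17207, 9486 and 11253 CPM in mice 6, 8, 9, 10 and 12, and for *Ngp* they were 10608, 16341, 15917, 9193 and 11496. Mice 8 and 9 held the higher values of both genes. Without these 2 mice the difference between drug and vehicle was −0.30 for *Ltf* (0.02 with them) and −0.12 for *Ngp* (0.14 with them), and neither passed the threshold (FDR = 0.199 and 0.698).

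*Cd177* had 1648, 2986, 3227, 1634 and 1719 CPM in the same drug-treated WT mice, and *Lcn2* had 4111, 4879, 6263, 3710 and 2750. *S100a8* had 11447, 11661, 21511, 10206 and 8508. In *S100a8* mouse 9 alone was high, whereas in *Cd177*, *Ltf* and *Ngp* mice 8 and 9 were both high.

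In S34F mice the drug again moved none past the threshold (10.8% of 14714 genes were called and 7.8% did not overlap between the groups, with 0 of the 10 not overlapping). With edgeR 1 gene, *Chi3l3*, had an unadjusted p under 0.05, and DESeq2 called this 1 gene (FDR = 0.0973). *Chi3l3* had 5783, 6013, 6523, 5025 and 6967 CPM in drug-treated S34F mice, against the vehicle values given above. Vehicle-treated mouse 7, at 6385, lay among the drug-treated mice while the other 4 lay below them. The difference was 0.31 ± 0.13 (FDR = 0.172, edgeR), and it passed without that mouse (0.43, FDR = 0.0391).

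*S100a8* in S34F mice was at 26163 ± 5356 CPM with vehicle and 25120 ± 5176 with drug (−0.06, 95% interval −0.40 to 0.27). *Camp* (−0.10, interval −0.33 to 0.13) and *Mmp8* (−0.02, interval −0.37 to 0.33) also had intervals that include 0.

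Under drug, S34F mice had more *S100a8* and more *Chi3l3* than WT mice, and 2 of the 10 genes were called where 36.8% of 14677 genes were (17.2% higher, and 13.1% at a minimum log2 change of 0.58, where *S100a8* was the 1 gene left). *S100a8* had 23735, 25150, 29257, 17238 and 30219 CPM in drug-treated S34F mice. Only WT mouse 9 (21511) reached into that range. The difference was 0.99 ± 0.25, 1.98-fold (FDR = 0.0114), and 1.33 without WT mice 8 and 9 (FDR = 0.000322).

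*Chi3l3* was 1.45-fold higher in S34F than WT mice under drug, 0.53 ± 0.13 on the log2 scale (FDR = 0.00914). Drug-treated WT mice had 3961, 4817, 4552, 3411 and 4168 CPM, all below the drug-treated S34F mice. It was the 1 gene of the 10 without overlap, beside 19.7% of all genes tested. Without WT mice 8 and 9 the difference was 0.66 (FDR = 0.00206). Without those 2 mice *Ltf* also passed (0.35, FDR = 0.0760), against 0.0011 with them, so that 3 of the 10 genes were called where 43% of genes were. Mice 8 and 9 held the highest *Ltf* values of their group, so leaving them out raises this difference by itself.

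Vehicle-treated WT mice and drug-treated S34F mice differed in 4 of the 10 genes, all higher with mutation and drug together, where 50.2% of 14761 genes were called (25.1% higher). At a minimum log2 change of 0.58, *S100a8* and *Chi3l3* were called, beside 18.8% of genes. *S100a8* differed by 1.21 ± 0.20 (FDR = 0.000521) and *Chi3l3* by 0.67 ± 0.11, 1.59-fold (FDR = 0.000483). Both had no overlap between the groups, beside 24.2% of all genes tested. *Camp* (0.32 ± 0.13, FDR = 0.0641) and *Mmp8* (0.36 ± 0.15, FDR = 0.0694) passed with overlapping groups. *Camp* lost its call without any of 4 mice, among them drug-treated S34F mice 9 (0.28, FDR = 0.138) and 12 (0.27, FDR = 0.145) and vehicle-treated WT mice 1 (0.33, FDR = 0.103) and 5 (0.33). *Mmp8* lost it without any of 6 mice, with differences of 0.28 to 0.36. DESeq2 called 5 of the 10, with *Lcn2* added (0.23, FDR = 0.0989). These comparisons share groups of mice, and their values stand side by side and not as repeats of each other.

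**Figure D2:**
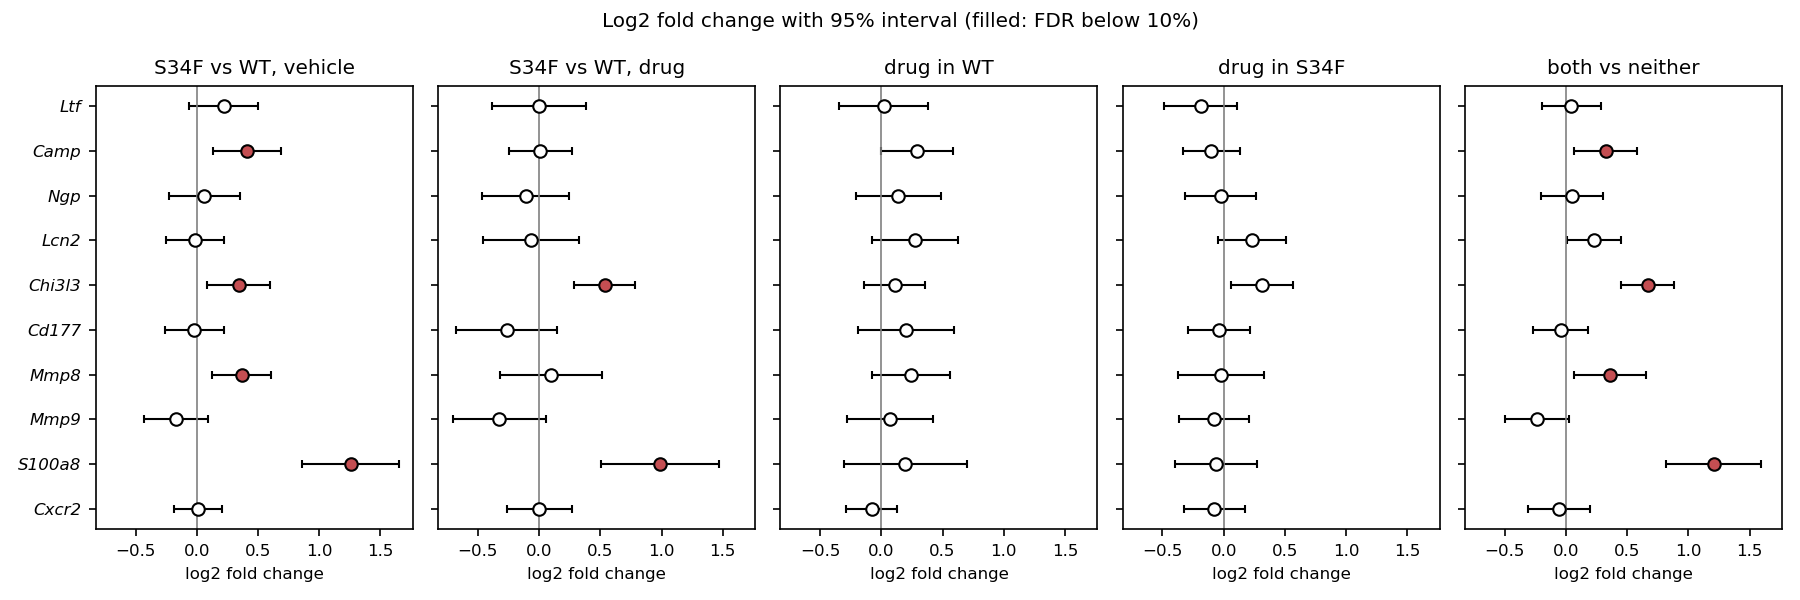
Log2 fold change (x axis, second group over first) of each of the 10 genes (y axis) in the 5 comparisons, with approximate 95% intervals derived from the edgeR test statistic, filled where FDR was under 10%. *S100a8* and *Chi3l3* are filled in the 2 comparisons between the genotypes and in that of mutation with drug against neither. The 2 drug comparisons hold no filled point.

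The difference between the drug effects of the genotypes was tested for the 8 genes other than *Chi3l3* and *Cd177*, and none was called (2 of 15392 genes, or 0.013%, were called). With edgeR 1 gene had an unadjusted p under 0.05, *Camp*, whose drug effect was lower by 0.41 ± 0.20 in S34F than in WT mice (FDR = 0.668). DESeq2 called none and also had 1 unadjusted p under 0.05. Without WT mice 8 and 9 none of the 8 was called (13 genes in all, or 0.0825%) and none had an unadjusted p under 0.05, and *Camp* was at −0.23 (FDR = 0.784). As a description, the drug effect on *Chi3l3* was 0.18 higher in S34F mice (interval −0.17 to 0.54) and 0.33 higher without those 2 mice. That on *Cd177* was 0.26 lower (interval −0.75 to 0.24) and 0.19 higher without them.

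Reads on annotated splice junctions, from the second deposited table and the same libraries, gave a second view of the levels without a test. They were scaled to each mouse's total of junction reads, without TMM factors, and the ratios are those of group means. *S100a8* had 13519 ± 3244 CPM of junction reads in WT and 28643 ± 3463 in S34F mice under vehicle, a log2 ratio of 1.08 without overlap, and the ratio under drug was 0.92, also without overlap. For *Chi3l3* the ratio was 0.32 under vehicle and 0.39 under drug, both without overlap. The share of all genes without overlap in this measure was not counted. *Camp* (0.23) and *Mmp8* (0.27) had overlapping groups under vehicle in this measure. So did *Mmp9*, whose ratio was −0.33 under vehicle and −0.44 under drug, *Cxcr2* (0.28 and 0.26), *Ngp* (−0.19 and −0.30), *Ltf* (0.10 under vehicle), *Lcn2* (−0.12) and *Cd177* (−0.13). The ratios of *Mmp9*, *Cxcr2* and *Ngp* lay farther from 0 than the differences of their gene counts under vehicle. Because these measures are scaled differently, they are not like for like, and the part of the scaling in the gaps was not tested. Without drug-treated WT mice 8 and 9 the ratios under drug were 1.06 for *S100a8* and 0.44 for *Chi3l3*, both without overlap, and −0.27 for *Mmp9*, 0.20 for *Cxcr2* and −0.20 for *Ngp*.

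The 10 genes varied together from mouse to mouse within the groups. After each group's mean was subtracted, *Ltf* and *Ngp* had a Pearson r of 0.978 over 20 mice, *Ltf* and *Cd177* 0.939, and *Ltf* and *Mmp9* 0.901. *S100a8* followed the others least, with r = 0.615 to the mean of the other 9 against 0.940 for *Ltf*. *Camp* and *S100a8* had the lowest r of all pairs, 0.292. With drug-treated WT mice 8 and 9 left out, the pairs of *Ltf* had r = 0.972, 0.881 and 0.845 over 18 mice, and *S100a8* had 0.457 to the mean of the others. The libraries were prepared in the same way and differed in depth (41145892 to 62138138 gene counts), and these values are descriptions.

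The mean of the 10 z-scores was highest in drug-treated WT mouse 9 (1.70), vehicle-treated S34F mouse 7 (1.40), drug-treated S34F mouse 12 (1.03) and drug-treated WT mouse 8 (0.91). It was lowest in drug-treated S34F mouse 10 (−1.44) and drug-treated WT mouse 10 (−1.12). Outside the list, *Alox5*, the enzyme that opens leukotriene synthesis, followed this mean most closely (r = 0.973), and then *D930015E06Rik*, *Dfna5*, *Ankrd22*, *Msra*, *Trem3*, *Slc31a2*, *Mtmr3*, *Osbpl2* and *Arrb2*, with r down to 0.961. None of these has a result of its own here.

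Markers of B cells were low in 3 of the mice with a high mean z-score. Their 10 genes, each present above 3 counts in at least 1 mouse of every group, summed to 47.0 and 30.3 CPM in drug-treated WT mice 8 and 9 and to 171, 194 and 221 in mice 6, 10 and 12. In vehicle-treated S34F mouse 7 the sum was 18.9, where the other 4 mice had 50.7 to 194. Vehicle-treated WT mice went the other way at both ends, with 50.2 in mouse 2, which had the lowest mean z-score of its group, and 174 in mouse 4, which had the highest. In drug-treated S34F mice the sum stayed within 42.7 to 61.8 while the mean z-score went from −1.44 to 1.03. Of the same list, 2 genes were lower with drug in each genotype (1.89% of all genes were lower in WT and 5.85% in S34F mice), and none in WT mice without mice 8 and 9. Under drug 5 were lower in S34F mice (7 without those 2 mice), beside 19.6% of genes, and 10 with mutation and drug together, beside 25.1%. Between the genotypes under vehicle the list's median was −0.97 without a call by edgeR. The part of this in the results for the granule genes was not tested.

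**Figure D3:**
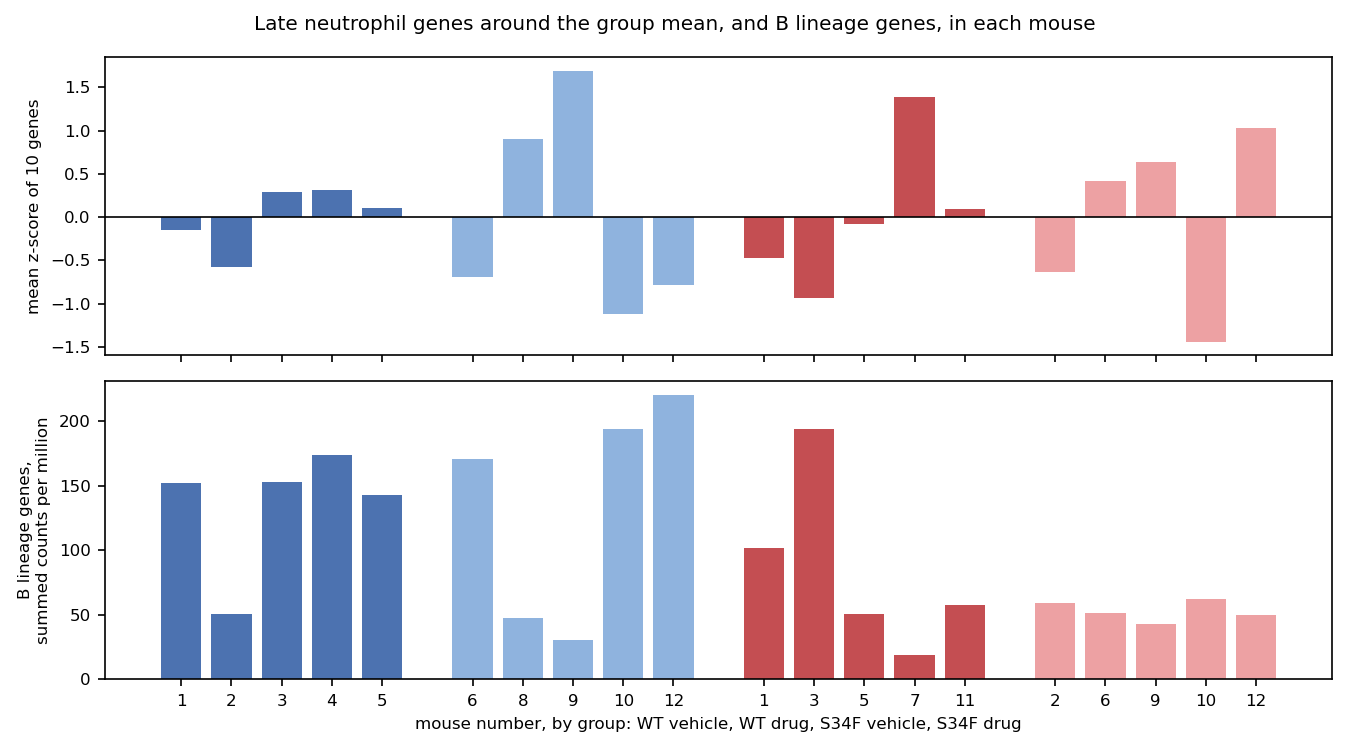
Mean z-score of the 10 genes around the group mean (upper panel, y axis) and summed CPM of 10 B lineage genes (lower panel, y axis) in each mouse (x axis), with colours for the groups. Drug-treated WT mouse 9 has a z-score of 1.70 and a sum of 30.3, and drug-treated WT mouse 10 has −1.12 and 194.

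Lists of related genes were compared in the same fits, and had been assembled with earlier results of these mice known. Of 9 primary granule genes tested, 5 were higher in S34F than WT mice under vehicle, where 19.7% of all genes were, and none lower (19.8% were). The list median was 0.36. *Ctsg*, the serine protease cathepsin G, rose from 228 ± 72.1 to 311 ± 24.2 CPM (0.43, FDR = 0.0612). *Mpo*, myeloperoxidase, was at 1565 ± 116 and 1786 ± 231 CPM (FDR = 0.218) and *Elane*, neutrophil elastase, at 396 ± 37 and 382 ± 58.3 (FDR = 0.679). Under drug 4 of the 9 were higher in S34F mice, beside 17.2% of all genes, and 5 without drug-treated WT mice 8 and 9, beside 21.6%.

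Of 27 other late neutrophil genes, 8 were higher and 6 lower in S34F mice under vehicle (median 0.0018), beside 19.7% and 19.8% of all genes. *S100a9*, the partner of *S100a8* in calprotectin, had 22270 ± 2274 CPM in WT and 38693 ± 8790 in S34F mice (0.79, FDR = 0.00248), and under drug it differed by 0.62 (FDR = 0.0460; 0.89 without drug-treated WT mice 8 and 9). *Lyz2*, lysozyme, was at 9532 ± 805 and 9611 ± 1348 CPM under vehicle (FDR = 0.993), and *Retnlg*, a resistin-like secreted protein of neutrophils, at 2494 ± 264 and 2751 ± 512 (FDR = 0.483). Under drug 1 of this list was higher in S34F mice and 7 were lower, beside 17.2% and 19.6% of all genes. Without drug-treated WT mice 8 and 9 this balance turned, with 8 higher and 5 lower, beside 21.6% and 21.4%, and *Lyz2* then passed (0.33, FDR = 0.0524, against 0.14 and FDR = 0.522 with them). In the drug comparisons 3 of the 27 were called in each genotype, where 3.07% of all genes were called in WT and 10.8% in S34F mice, and in WT mice also 3 without those 2 mice (3.38%).

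Of 8 regulators of granule genes tested, 2 were higher and 3 lower in S34F mice under vehicle, beside 19.7% and 19.8% of all genes. *Cebpe* rose from 98.6 ± 8.46 to 149 ± 26.5 CPM in S34F mice under vehicle (0.59, FDR = 0.00224). Under drug it was at 125 ± 45.1 CPM in WT and 130 ± 18.7 in S34F mice (0.058, FDR = 0.859), and without WT mice 8 and 9 it was higher in S34F mice (0.47, FDR = 0.00785). Under vehicle *Cebpb*, the factor of emergency granulopoiesis, fell from 123 ± 30.1 to 57.4 ± 10.5 (−1.11, FDR = 0.000762). For *Cebpb* the S34F mice ranged from 41.9 to 66.6 CPM and the WT mice from 97.4 to 171. Under drug *Cebpb* was again lower in S34F mice (−0.64, FDR = 0.00403, and −0.46 without WT mice 8 and 9). *Cebpd* did not pass under vehicle (−0.18, FDR = 0.337) and was lower in S34F mice under drug (−0.51, FDR = 0.0132, and −0.29 without those 2 mice). Under drug none of the 8 was higher and 3 were lower, against 1 higher and 3 lower without them. None was called for the drug in either genotype, with or without those mice in WT.

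Of 6 genes of the NADPH oxidase, 1 was higher in S34F mice under vehicle, *Cybb*, its catalytic subunit (0.38, FDR = 0.0308). *Cyba* (0.11, FDR = 0.373) and *Ncf1* (0.03, FDR = 0.855), other subunits, did not pass. Under drug *Cybb* did not pass (0.27, FDR = 0.211), and 1 of the 6 was lower. Without drug-treated WT mice 8 and 9, 3 were higher and none lower, with *Cybb* at 0.54 (FDR = 0.00272).

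Partners of the 10 genes were measured too, as a list of inhibitors and ligands with 8 genes tested. *Cxcl2*, a ligand of the receptor that *Cxcr2* encodes, had 165, 185, 134, 79.2 and 76.2 CPM in vehicle-treated WT mice and 24.5, 5.24, 5.10, 2.62 and 5.20 in vehicle-treated S34F mice. All S34F mice were below all WT mice (−3.92 ± 0.66, FDR = 0.00316), where 20.2% of all genes tested had groups without overlap. With drug *Cxcl2* was lower in WT mice, at 38.1, 33.4, 45.4, 32.5 and 54.2 CPM (−1.67, FDR = 0.00804), again without overlap, beside 4.15% of all genes tested. The difference was −1.62 without mice 8 and 9 (FDR = 0.0654). In S34F mice it was not lower with drug, at 14.7, 2.89, 10.4, 22.5 and 22.0 CPM, and the groups overlapped. *Cxcr2* itself was at 600.5 ± 69.6 and 608 ± 49.1 CPM under vehicle.

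*Lrp1*, a scavenger receptor that takes up lactoferrin and protease complexes, had 387 ± 45.9 CPM in vehicle-treated WT and 148 ± 47.8 in vehicle-treated S34F mice (−1.40, FDR = 0.000337). With drug it was higher in S34F mice, at 310 ± 84.5 (1.07, FDR = 0.0291). Drug-treated WT mice had 360, 339, 316, 369 and 429 CPM of *Lrp1* and overlapped the vehicle-treated WT mice (−0.00138 without mice 8 and 9). *Timp2*, an inhibitor of matrix metalloproteinases, was lower in S34F mice under vehicle (−0.30, FDR = 0.0646) and under drug (−0.46, FDR = 0.0243, and −0.26 without WT mice 8 and 9). In all, 3 of 8 were lower under vehicle, beside 19.8% of all genes, and 2 under drug, beside 19.6% (3 without those mice).

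Of 10 genes of proliferation, which mark the dividing precursors, 4 were higher in S34F mice under vehicle, where 19.7% of all genes were, and 9 under drug, where 17.2% were (9 also without WT mice 8 and 9). *Top2a* was at 617 ± 90.3 and 914 ± 62.9 CPM under vehicle (0.55, FDR = 0.00186) and differed by 0.55 under drug (FDR = 0.000849). *Mki67* did not pass under vehicle (0.35, FDR = 0.101) and passed under drug (0.50, FDR = 0.00916), and *Ccnb2* passed in both (0.37, FDR = 0.0721, and 0.32, FDR = 0.0469). For sudemycin D6 none of the 10 was called in WT mice, with or without mice 8 and 9, and 4 were higher in S34F mice, beside 4.94% of all genes.

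Monocyte markers, another myeloid list, had 5 of 8 genes lower in S34F mice under vehicle, beside 19.8% of all genes. Their summed level was 2108 to 2999 CPM in vehicle-treated WT, 1610 to 2420 in vehicle-treated S34F, 1962 to 2261 in drug-treated WT and 2236 to 3021 in drug-treated S34F mice. With drug 2 were higher in S34F mice (4.94% of all genes were) and none was called in WT mice. Under drug 2 were higher and 1 lower in S34F than WT mice, beside 17.2% and 19.6% of all genes. Without WT mice 8 and 9 these were 3 and 1, beside 21.6% and 21.4%. The part of these lists in the results for the 10 genes was not tested.

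**Figure D4:**
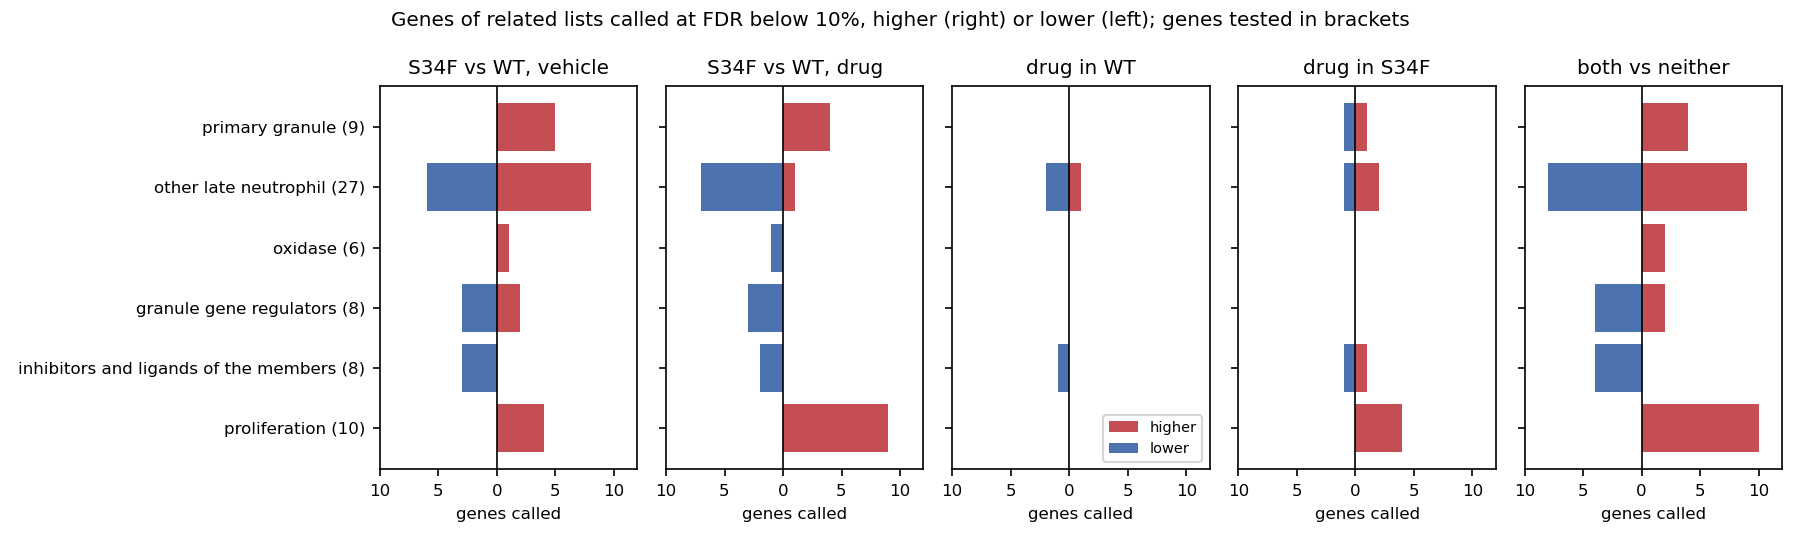
Number of genes (x axis) of each related list (y axis, genes tested in brackets) called at FDR under 10% in the 5 comparisons, with genes higher in the second group to the right and lower to the left. Primary granule genes are called mostly to the right (5 higher and 0 lower under vehicle) and other late neutrophil genes in both directions (8 and 6).

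The stretches before the genes' starts were read because the 10 genes moved together between mice. The C/EBP motif TTNNGNAA was searched on both strands in the 250 bases before the start of the 9 genes with an entry in RefSeq (GRCm38.p6 coordinates, while the counts are on NCBI build 37), and no other motif was searched. It was found in 7 of 9 (77.8%), beside 36.8% of 32851 promoters. Camp and Cxcr2 had no match in this window. Windows of 30 bases are shown for a secondary granule gene or protease each, with the match in capitals.

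Ltf (chr9:111019206-111019235, plus strand, 75 bases before the start): aggcaggcctaTTGGGCAAtagggtggggc
Ngp (chr9:110419778-110419807, plus strand, 11 bases before the start): tttatgtcaccggcagttcTTGGGCAAggc
Lcn2 (chr2:32387937-32387966, minus strand, 216 bases before the start): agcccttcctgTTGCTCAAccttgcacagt
Mmp8 (chr9:7558399-7558428, plus strand, 19 bases before the start): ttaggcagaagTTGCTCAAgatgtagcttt

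These matches are a description of the letters and were not tied to the levels. A share of 36.8% of all promoters carries the same letters.

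Splicing of *Chi3l3* was read from the junction counts, where 10 cassette exon events fell inside the gene. The gene model spans chr3:105950472-106022425 (NCBI build 37, minus strand) and reaches across *Chi3l4*, a near-identical copy, so its reads cannot be assigned to one of the copies with certainty. Exons 1 and 4 of the copies are 100% identical, exon 2 is identical in 29 of 30 bases, and exon 11 in 79.9%. Apart from the sparsely read copy in *Chi3l4*, exon 2 had the largest skipped share, 30 bases long (chr3:105967721-105967750) and coding. The exon is shown in capitals in both copies, with 20 intron bases before it.

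Chi3l3 exon 2 (chr3:105967715-105967770): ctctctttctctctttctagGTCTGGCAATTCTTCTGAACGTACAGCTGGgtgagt
Chi3l4 exon 2 (chr3:106017902-106017957): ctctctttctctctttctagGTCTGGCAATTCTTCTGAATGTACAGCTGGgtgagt

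The base before the AG that ends the intron is a T at exon 2, and 2 of the 10 *Chi3l3* acceptors have a T there (exons 2 and 6). The skipped share of exon 2 was 0.733%, 1.01%, 0.726%, 0.528% and 0.982% in vehicle-treated WT mice and 3.26%, 2.57%, 4.49%, 4.23% and 2.75% in drug-treated WT mice. The groups did not overlap. The share of all cassette exons without overlap was not counted, for this exon or for those below. *Chi3l3* was also chosen by drug changes of its exons, so the separation is a description. The means were 0.795 ± 0.199 and 3.46 ± 0.863 (± SD, n = 5), a difference of 2.67 percentage points. The mean was 3.42 ± 0.750 (n = 3) without mice 8 and 9, and the difference 2.62 points.

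In S34F mice the share was 1.73%, 1.53%, 1.46%, 1.94% and 2.19% with vehicle, above every vehicle-treated WT mouse (difference 0.976 points). With drug it was 3.96%, 3.21%, 4.80%, 2.53% and 3.91%, a difference of 1.91 points without overlap. The drug change was thus 0.756 points smaller in S34F mice (0.712 without WT mice 8 and 9), which is a description and not a test. Over all cassette exons of the table, the fit used here (edgeR, dispersion 0) called 0 of 47807 events (0%) for a difference between the genotypes in the drug effect, with 2169 at an unadjusted p under 0.05. Because *Chi3l3* and *Cd177* were chosen by this comparison, that count describes the table and is no test of their events. Skipping junctions held 1761 reads in vehicle-treated WT mice, 7967 in drug-treated WT, 6349 in vehicle-treated S34F and 13596 in drug-treated S34F mice, all 5 mice together.

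Skipping leaves the reading frame intact. The coding part has 1194 bases with exon 2 and 1164 without it, 398 and 388 codons, and no stop codon inside either. The letters around the join, with exon 2 in capitals, are the following.

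Chi3l3 with exon 2: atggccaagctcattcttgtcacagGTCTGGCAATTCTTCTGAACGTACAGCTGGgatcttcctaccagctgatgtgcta
Chi3l3 without exon 2: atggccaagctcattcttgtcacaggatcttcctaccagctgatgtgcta

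Because exon 1 is the same in both copies, reads across its junction were counted for both. The junction from exon 2 to the *Chi3l3* exon 1 held 121571 reads in vehicle-treated WT mice and that to the *Chi3l4* exon 1 held 121597. The event with the *Chi3l4* flank gave 0.800 ± 0.197% and 3.46 ± 0.863% in WT mice. The exon of *Chi3l4* itself had 26 to 132 inclusion reads per mouse, which is too few to set a share. Of 223 junctions in the gene model, 20 are annotated, and these held 86.0% to 96.0% of the junction reads of a mouse.

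The other *Chi3l3* exons were skipped at lower shares. Exon 9 (chr3:105951720-105951839) had 0.682 ± 0.153% in WT and 1.03 ± 0.169% in S34F mice under vehicle, and 0.646 ± 0.107% and 1.08 ± 0.215% under drug (0.687 ± 0.122% in WT mice without mice 8 and 9). The S34F mice ranged from 0.842% to 1.21% under vehicle, above all WT mice of that treatment (up to 0.831%). No event other than those of exon 2 and of the *Chi3l4* copy reached 2% in any mouse.

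*Cd177* is built of repeats, which limits what junction reads can assign. The gene spans chr7:25529004-25545330, and its exons 8 and 12 are identical in 95 of 120 bases (79.2%), exons 4 and 12 in 83.3%. Bases that differ between exons 8 and 12 are in capitals.

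Cd177 exon 8 (chr7:25539572-25539691, minus strand): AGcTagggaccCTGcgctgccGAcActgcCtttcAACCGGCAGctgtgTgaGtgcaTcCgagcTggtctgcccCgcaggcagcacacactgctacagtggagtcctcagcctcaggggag
Cd177 exon 12 (chr7:25535595-25535714, minus strand): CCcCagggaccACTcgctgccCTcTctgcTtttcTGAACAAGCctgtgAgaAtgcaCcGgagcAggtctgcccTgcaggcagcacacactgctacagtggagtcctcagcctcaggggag

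Of 11 cassette exon events in *Cd177*, all stayed under 2% in every mouse, the highest being exon 8. Its skipped share was 0.600 ± 0.165% in vehicle-treated WT, 0.744 ± 0.261% in drug-treated WT, 0.518 ± 0.115% in vehicle-treated S34F and 0.578 ± 0.157% in drug-treated S34F mice, from 0.298% to 0.959% over all mice. The 4 groups overlapped. The drug changes were 0.144 points in WT and 0.060 points in S34F mice. With mice 8 and 9 left out, the WT mean with drug was 0.821 ± 0.0665% (n = 3) and the change 0.221 points.

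A donor 9 bases further into the intron after exon 3 was used beside the annotated one, and was picked after its values were seen. The stretch is shown with the 9 bases between the donors in capitals.

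Cd177 exon 3 donors (chr7:25544605-25544639, minus strand): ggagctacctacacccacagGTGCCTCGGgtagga

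The downstream donor took 29.6 ± 0.868% of the reads of both donors in vehicle-treated WT mice, 28.2 ± 1.33% in drug-treated WT, 29.8 ± 1.32% in vehicle-treated S34F and 29.2 ± 0.924% in drug-treated S34F mice. All 4 ranges overlapped, from 27.1% to 31.7%. Without mice 8 and 9 the drug-treated WT mice had 27.5 ± 0.306% (27.1% to 27.7%, n = 3), below the lowest vehicle-treated WT mouse (28.7%). Mice 8 and 9 had the highest shares of their group (28.4% and 30.5%), so leaving them out makes this gap by the choice itself. It is a description, and the share of junction choices that separate in this way was not counted.

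**Figure D5:**
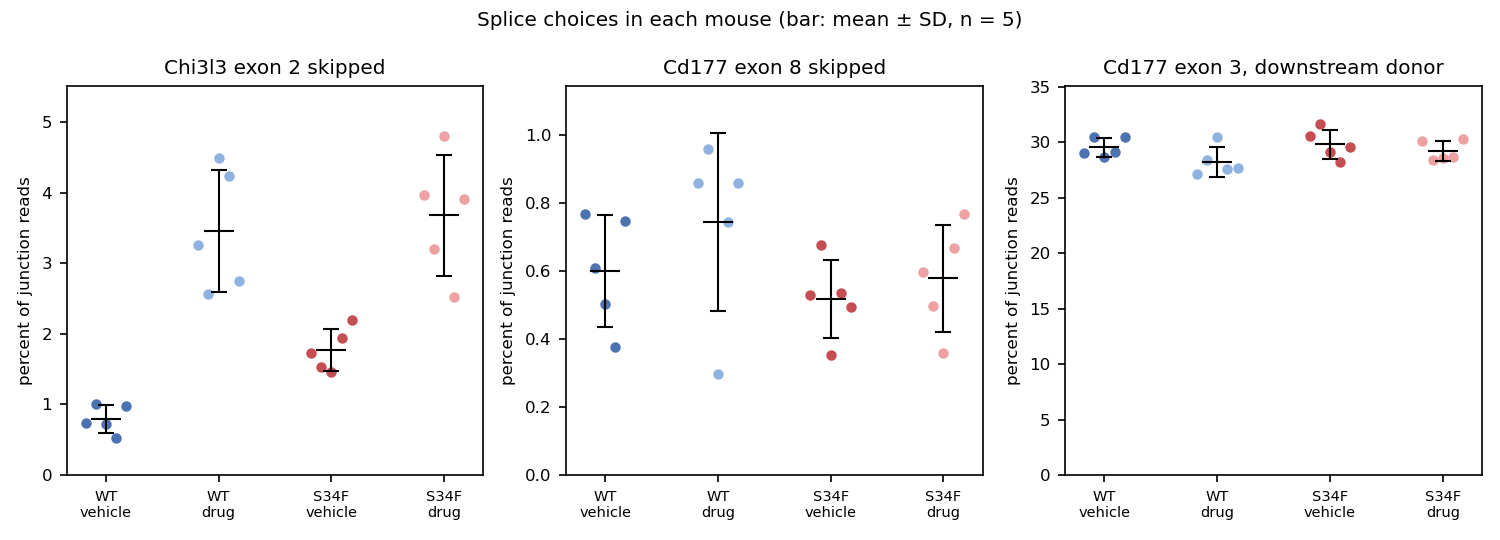
Share of junction reads (y axis, percent, from 0) that skip *Chi3l3* exon 2, skip *Cd177* exon 8 or use the downstream donor of *Cd177* exon 3, in each mouse by group (x axis), with mean ± SD of 5 mice. The drug-treated mice skip *Chi3l3* exon 2 at 2.53% to 4.80% and the vehicle-treated mice at 0.528% to 2.19%, whereas the *Cd177* groups overlap.

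Cassette exons of the other 8 genes were tested together with all events of the table (1 effect of group on the ratio of inclusion to skipping reads, FDR under 10% and a change in skipped share over 1 percentage point). Between 25 and 27 events of these genes were tested in each comparison. None was called in any of the 5 comparisons, where 2.81%, 0.86%, 1.41%, 3.26% and 5.07% of all events were called for the genotypes under vehicle, drug in WT, drug in S34F, the genotypes under drug, and mutation with drug against neither. These shares hold for a dispersion of 0, and limma on the shares called 0.441%, 0.0748%, 0.21%, 0.415% and 1.35% of all events, while edgeR with an estimated dispersion called 0 events in every comparison. By FDR alone, with any size of change, 4, 1, 1, 3 and 3 events of the 8 genes passed at a dispersion of 0, and none passed with limma or with an estimated dispersion. An unadjusted p under 0.05 was found for 9, 3, 4, 3 and 7 events with edgeR at a dispersion of 0, for 3, 1, 0, 0 and 3 with an estimated dispersion, and for 0, 0, 0, 0 and 1 with limma. Without drug-treated WT mice 8 and 9 none was called either, where 1.23% of all events were called for drug in WT mice and 2.45% for the genotypes under drug.

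Of these genes *Mmp8* had the event with the largest skipped share, exon chr9:7566181-7566334, at 0.432 ± 0.0676% in vehicle-treated WT and 0.867 ± 0.140% in drug-treated S34F mice. That change of 0.435 points stayed under 1 point. Its FDR was 0.00262 with edgeR at a dispersion of 0, and it did not pass with limma or with an estimated dispersion. The largest share in *Ltf*, 0.199 ± 0.0252% at exon chr9:110929834-110929924, was in vehicle-treated WT mice, against 0.10 ± 0.024% in vehicle-treated S34F mice. *Cxcr2* gave no event, and *S100a8* gave 1.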

How the data were processed

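Bulk bone marrow RNA depleted of ribosomal RNA was read by the authors as stranded paired ends of 126 bp and aligned with TopHat2 2.0.8 to mm9 (NCBI build 37), and the submitters' processing notes also name SAMtools. The authors deposited whole-number counts without normalization for 37620 genes and 554616 splice junctions. The program that counted genes is not given in the sources used here. Gene counts of 41145892 to 62138138 per mouse make counting error small beside the spread between mice, and the p-values measure that spread. Because mice of a genotype can share donors, it is spread between recipients and may not cover that between donors.

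Gene counts went into the robust quasi-likelihood fit of edgeR 4.0.16 under R 4.3.3, after filterByExpr and TMM scaling and with a prior count of 2, each comparison on its own 10 mice and the interaction on all 20, with Benjamini-Hochberg adjustment over all genes and calls at FDR under 10%. The skipped share of a cassette exon is 1 minus Ψ, with inclusion reads divided by 2, and events with a mean of at least 10 reads were tested in edgeR with a dispersion of 0. Alternatives were DESeq2 1.42.0, limma 3.58.1 for events, other scalings, filters and thresholds, one model of all mice, a replicate block and leaving out mice. The fits were run on simulated counts with changes larger than most of those reported here. How well smaller changes are found was not tested.

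The 10 genes and the lists were chosen with earlier results of these data known. All 10 genes are named, with the 10 genes most alike, and the 3 most abundant genes per length of each related list could be named. Exon sequences came from the reference of the same build, promoters from RefSeq (GRCm38.p6), where *Chi3l3* was matched as Chil3. Python 3.11.15 with pandas 2.3.3 was used for tables.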

Additional observations from a re-analysis of the deposited data

Results flagged for a closer look

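Of 40 groups of 5 mice (10 genes in 4 groups), 3 held a mouse whose gap to its nearest neighbour exceeded Dixon's 95% limit, which chance passes in about 1 in 20 groups. *S100a8* in drug-treated WT mouse 9 was at 21511 CPM, where the other 4 mice had 8508 to 11661 (gap over range 0.758). *Cxcr2* was highest in the same mouse, at 676 CPM against 546 to 566 (0.843). *Camp* in vehicle-treated S34F mouse 7 was at 7828 CPM against 5573 to 6146 (0.746). These are also the mice with the highest mean of the 10 z-scores in their groups, a mean that includes the flagged values themselves.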

How the results depend on the processing

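With a minimum log2 change of 0.58, the number of the 10 genes called fell from 4 to 1 for the genotypes under vehicle, from 2 to 1 under drug and from 4 to 2 for both against neither, and FDR under 5% also gave 2 for the last. All genes called fell with that minimum to 2093, 1917 and 2775 in these comparisons, and to 610 for drug in S34F mice. FDR under 5% gave 243 genes for drug in WT and 826 for drug in S34F mice, DESeq2 811 for drug in WT mice and 116 for the interaction, one model of all mice 1072 and 788 for drug in WT and S34F mice, and for the interaction no filter on counts gave 10 and leaving out drug-treated WT mice 8 and 9 gave 13. DESeq2 called 1 of the 10 genes for drug in S34F mice.

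Mouse numbers do not pair the samples: same-number correlations of deviations were 0.123, 0.154 and −0.11 under vehicle and −0.0376, 0.266, 0.366 and −0.18 under drug, and 1 of these 7 was the best match of its mouse. On the mice that share numbers, 1 of the 10 genes was called under vehicle with the replicate block and 1 without it. In those mice *Ngp* was at −0.10 with the block and −0.0958 without, and *Cxcr2* at −0.0490 and −0.0454, and under drug *Ngp* was at 0.0375 and 0.0277 and *Lcn2* at 0.0606 and 0.0213.

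With 1 mouse left out, the 10 genes had 3 to 4 calls for the genotypes under vehicle, 0 to 1 for drug in S34F (1 without vehicle-treated S34F mouse 7), and 2 to 5 for both against neither. All genes called ranged from 191 (without vehicle-treated WT mouse 1) to 730 (without mouse 2) for drug in WT mice, 913 (without drug-treated S34F mouse 2) to 1736 for drug in S34F mice and 2 to 87 (without vehicle-treated S34F mouse 5) for the interaction. Calls among the markers of other lineages, 13 for the genotypes under vehicle, ranged from 9 to 21 (without vehicle-treated S34F mouse 3). At a dispersion of 0, all events called were 322 for drug in WT mice and 542 (without vehicle-treated WT mouse 5) to 713 (without drug-treated WT mouse 6), 559 for drug in S34F mice and 359 (without drug-treated S34F mouse 2) to 480, 1268 for the genotypes under drug and 786 (without drug-treated S34F mouse 9) to 1080, 1089 under vehicle and 893 to 1226, and 2028 for both against neither and 1430 to 1922. Events of the other 8 genes kept 0 calls in each. The *Chi3l3* exon 2 change with drug in WT mice, 2.67 points, was 2.41 to 2.89, and 1.36 with inclusion reads not divided.

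Signs turned only in genes that were not called. Without drug-treated WT mice 8 and 9 the drug changes in WT mice were −0.30 for *Ltf*, −0.12 for *Ngp*, −0.00319 for *Lcn2*, −0.20 for *Cd177*, −0.23 for *Mmp9* and −0.11 for *S100a8*, and the genotype differences under drug were 0.18 for *Ngp*, 0.24 for *Lcn2*, 0.17 for *Cd177* and 0.00118 for *Mmp9*. The interaction was then 0.142 for *Ltf*, 0.125 for *Ngp*, 0.262 for *Lcn2*, 0.00475 for *Mmp8*, 0.174 for *Mmp9*, 0.0788 for *S100a8* and 0.0682 for *Cxcr2*. Without drug-treated WT mouse 9 alone they were −0.0996 for *Ltf*, −0.0921 for *Mmp9* and −0.0759 for *S100a8* with drug in WT mice, 0.11 for *Lcn2* between genotypes under drug, and 0.13 for *Lcn2*, 0.0206 for *Mmp9* and 0.0226 for *S100a8* in the interaction. Without vehicle-treated S34F mouse 7, *Ngp* was at −0.0548 between genotypes under vehicle, and drug in S34F mice gave 0.0907 for *Ngp*, 0.0580 for *Cd177*, 0.0952 for *Mmp8* and 0.0706 for *S100a8*. *Cxcr2* was at −0.11 without drug-treated S34F mouse 12 between genotypes under drug, and *Cd177* at 0.0298 without drug-treated S34F mouse 10 for both against neither. Other filters or scalings gave *Lcn2* 0.00324 and *Cxcr2* −0.00234 under vehicle, *Ltf* −0.00499 and −0.0022, *Cxcr2* −0.0075 and −0.000267 under drug, and *Cxcr2* 0.00955 in the interaction. The causes were not tested.

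Genotype and sex cannot be told apart, which mice share donors is not given in the sources used here, and *Chi3l3* and *Chi3l4* share reads. Skipped shares rest on junction reads alone.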

Other observations

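Lists of other lineages, beside those given above, had these counts. They are read beside the share of all genes lower in S34F than WT mice, 19.8% under vehicle and 19.6% under drug, and lower with drug, 1.89% in WT and 5.85% in S34F mice. Of 9 erythroid markers, 1 was lower in S34F than WT mice under vehicle and 4 under drug. With drug 2 of these were lower in S34F mice and none was called in WT mice. Of 7 T and NK cell markers, 2 were higher (19.7% of all genes were) and 1 lower under vehicle, and 3 were lower under drug (4 without drug-treated WT mice 8 and 9). With drug 2 of these were lower in S34F mice and none was called in WT mice. Without mice 8 and 9, 2 were higher with drug in WT mice, beside 1.45% of all genes. Of 6 eosinophil and basophil markers, 2 were lower under vehicle, 3 with drug in WT mice (none without mice 8 and 9), 1 with drug in S34F mice and 3 between genotypes under drug (4 without those mice), and their summed level was 256 to 433 CPM in vehicle-treated WT and 137 to 200 in drug-treated S34F mice. Of 5 megakaryocyte markers, 1 was higher and 1 lower in S34F than WT mice under vehicle, and 2 were lower under drug. With drug 2 of these were lower in S34F mice and none was called in WT mice. Of the list of 8 genes that define neutrophils, 3 were higher in S34F mice under vehicle and none was called for drug in either genotype. Under drug 2 were higher in S34F than WT mice, beside 17.2% of all genes (3 without WT mice 8 and 9, beside 21.6%).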
